A study of Ovis aries with 19 samples.

Results

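The enzymes described here are the phase I and phase II drug metabolism enzymes of sheep liver and muscle: cytochromes P450 (CYP), flavin-containing monooxygenases (FMO), UDP-glucuronosyltransferases (UGT), sulfotransferases (SULT) and cytosolic glutathione S-transferases (GST). Genes were chosen by name, with a mean of at least 10 normalized reads in liver or muscle, and 25 of the 28524 genes measured qualified. Names matching these families numbered 32, of which 7 stayed below that mean in both tissues. FMO2, at a liver mean of 10.7 and a muscle mean of 25.0, and GSTO2, at 13.3 in liver, lay just inside the limit, and UGT1A9, at 5.38 in liver, lay just outside it. The rule used gene names and mean levels and no comparison between groups, but it was set with earlier results of these data known. Enzymes of these families that the annotation lists only under a number were not analysed here.

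The series measured RNA from 10 female sheep. Prenatally testosterone-treated sheep (prenatal T-treatment) gave 5 liver and 5 muscle libraries, and control sheep gave 4 liver and 5 muscle libraries. Both tissues came from the same animals, known by sheep number, except that the liver of control sheep 132 was not analysed here. The age of the sheep, their breed and the dose and time of testosterone are not given in the sources used here.

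Phase I enzymes add or expose a reactive group on a lipid-soluble molecule, and phase II enzymes attach a water-soluble group to it, so that bile or urine can carry it away. Cytochromes P450 and FMO proteins sit in the endoplasmic reticulum and oxidise their substrates, while UGT, SULT and GST proteins attach glucuronic acid, sulfate and glutathione. The hepatocyte is the main site of this work, and steroid hormones, bilirubin and bile acids are handled by the same enzymes as drugs and plant toxins. Roles given below are known mostly from human and rodent proteins of the same name, and the sheep proteins were not assayed here.

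Depth ran from 10236610 to 16046301 reads per liver library and from 8455563 to 14331578 per muscle library. The values are normalized read counts, scaled within each tissue, so a level is compared only within a tissue, and genes are not ranked against each other because transcript lengths were not used. The tissues matched their labels: summed hepatocyte markers were 907690 or more per liver and 162 or less per muscle, and summed skeletal muscle markers were 939723 or more per muscle and 137 or less per liver. One library stood apart for the drug metabolism genes. The liver of treated sheep 185 held the lowest of the 9 liver values for 14 of the 25 genes, while it held the lowest value for 13.6% of the 13640 liver genes tested. These 25 genes together took 0.344% of the reads in that liver, against 0.620% to 0.815% in the other treated livers and 0.597% to 0.951% in control livers. The summed hepatocyte markers of that liver, at 907690, were also the lowest of the 9, just below the control range of 926692 to 1834666. Of the 10 hepatocyte markers, TF is the only one given singly here. It was 120581 in that liver, against 87928 to 120030 in control livers, and so did not follow the sum. Summed markers of hepatocytes around the portal vein were 82776, within the control range of 62606 to 109530. Those around the central vein were 30349, below the control range of 32990 to 114158. Members of this list did not all follow the sum. GLUL was 5156 there, above its control range of 2526 to 4503, and OAT was 59.8, within its control range of 53.3 to 127.7. Because a whole tissue was sequenced, fewer cells of a type and less RNA per cell cannot be told apart.

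**Figure D1:**
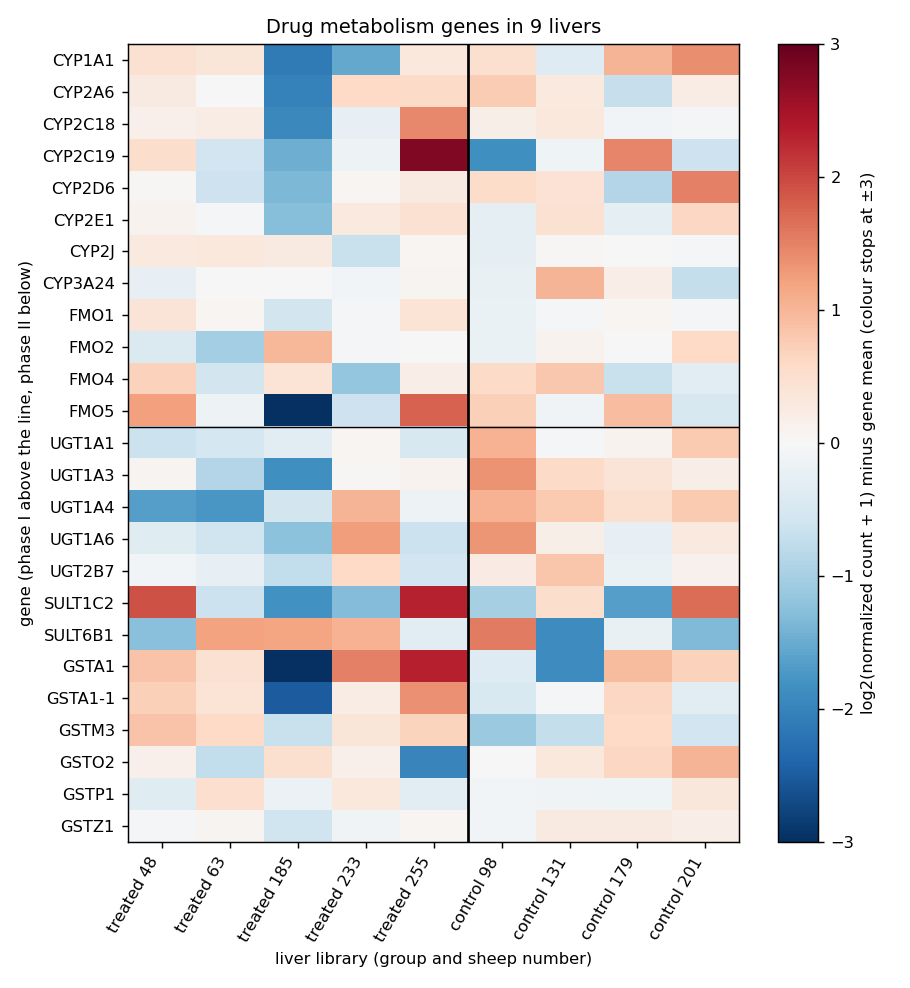
Each row is a gene and each column a liver library, with the 5 treated livers left of the black line and the 4 control livers right of it. Colour gives log2(normalized count + 1) minus the mean of that gene over the 9 livers. Treated sheep 185 is the blue column, lowest for 14 of 25 genes, and the UGT1A rows are paler or bluer in most treated livers than in control livers.

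All 25 genes passed the mean of 10 in liver, but 12 did so in muscle. Of the other 13, 6 had 0 reads in the 10 muscle libraries together, namely UGT1A1, UGT1A4, UGT1A6, SULT1C2, CYP2C18 and CYP2C19. With 114153358 muscle reads in all, a count of 0 allows for up to 3, by counting error alone. UGT1A3 and UGT2B7 had 1 muscle read each, SULT6B1 had 3, CYP2E1 had 8, CYP3A24 had 15, GSTO2 had 20 and CYP2A6 had 28. GSTM3 averaged 228 in liver and 1352 in muscle, GSTA1 252 in liver and 274 in muscle, and FMO2 10.7 in liver and 25.0 in muscle, and these were the 3 genes with a higher value in muscle. Since the tissues were scaled apart, these pairs are set side by side only as a description.

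In liver UGT1A1, UGT1A3 and UGT1A4 had the smallest p-values and were lower on average in treated sheep, but no gene of the 25 passed the test over all genes. Genes were tested with limma on log2(normalized count + 1), where a change counts as called at a Benjamini-Hochberg adjusted p under 0.05. By limma 0 of 25 passed, as did 0 by edgeR and 0 by DESeq2 on the recovered reads, beside 0.00733% of all 13640 genes by limma, 0.00733% by edgeR and 0.235% by DESeq2. At an unadjusted limma p under 0.05, 3 of the 25 were lower in treated livers and 0 were higher, beside 2.17% of all genes lower, 1.82% higher and 3.99% either way. The 3 were UGT1A1, UGT1A3 and UGT1A4, which end within 1 base of each other in the sheep gene table. They may share reads and need not be 3 independent results. By edgeR and by DESeq2, 2 of 25 had an unadjusted p under 0.05, UGT1A1 and UGT1A3, beside 4.25% and 5.04% of all genes. The median log2 fold change was -0.23 over the 25 genes and 0.0032 over all genes tested, and 17 of 25 were below 0, beside 49.6% of all genes. Without treated sheep 185 the median was 0.049, on the other side of 0, and GSTM3, GSTA1 and GSTA1-1 were higher at an unadjusted p under 0.05, 3 in all. Without treated sheep 233 there were 5 lower, with UGT1A6 and UGT2B7 added, and without control sheep 98 there was 1, UGT1A1. The share of all genes at that threshold without each of these sheep is not given here, so these counts cannot be set beside it. Fold changes ran from -1.39 to 0.83 after adding 1 and taking log2, a scale that shrinks the changes of sparsely read genes.

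**Figure D2:**
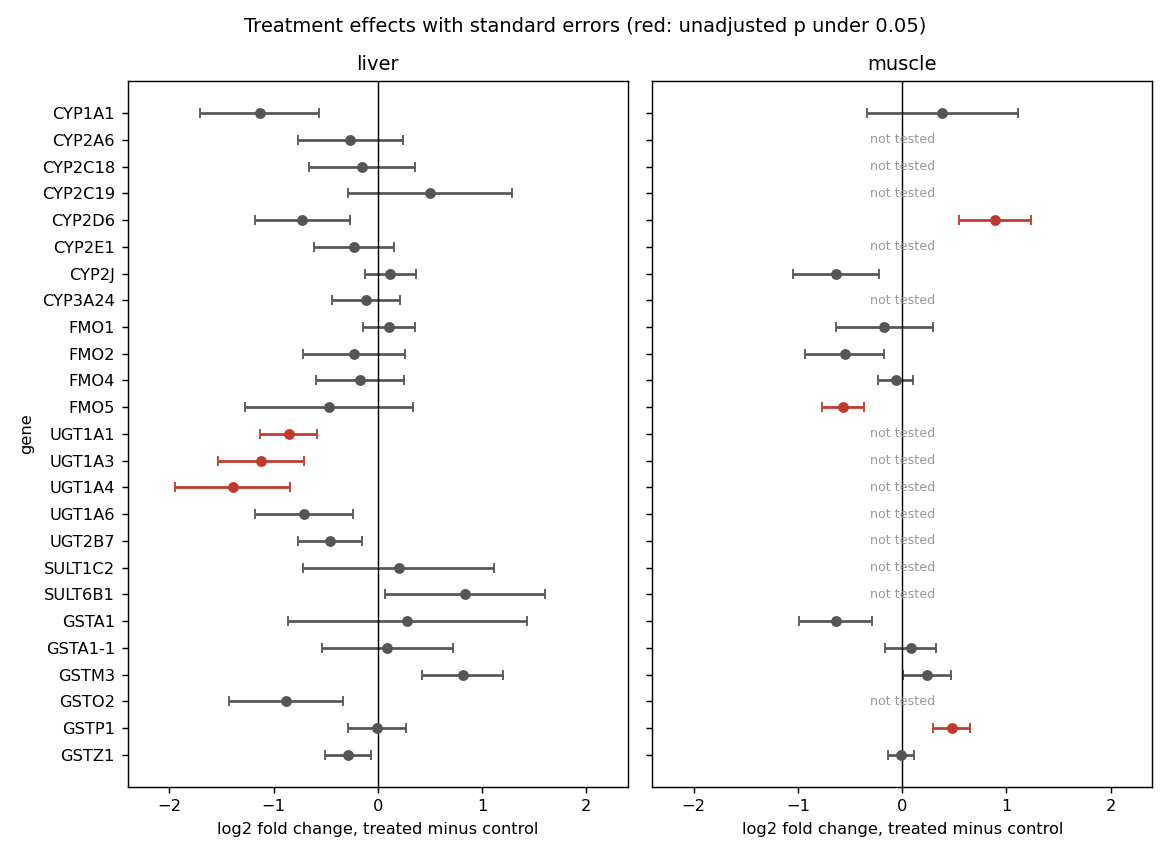
Points give the log2 fold change, treated minus control, of each gene in liver (left) and muscle (right), with the standard error as a bar. Red points had an unadjusted limma p under 0.05, which were UGT1A1, UGT1A3 and UGT1A4 in liver and FMO5, CYP2D6 and GSTP1 in muscle. None passed after adjustment over all genes, and 13 genes were too low in muscle to be tested.

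UGT1A proteins join glucuronic acid to bilirubin, steroids and phenols. In the following sentences the treated livers are given for sheep 48, 63, 185, 233 and 255 in that order, and the control livers for sheep 98, 131, 179 and 201. UGT1A1, the bilirubin-conjugating enzyme, had 233, 254, 292, 379 and 263 normalized reads in treated livers, against 752, 356, 394 and 631 in control livers. The groups met at one point only, where treated sheep 233 exceeded control sheep 131. The log2 fold change was -0.86 ± 0.27 (SE), with an unadjusted limma p of 0.00849 and an adjusted p of 0.910. UGT1A3, which conjugates bile acids and estrogens in human liver, had 265, 137, 70.1, 258 and 271 in treated livers, against 638, 375, 328 and 290.5 in control livers. Every treated value of UGT1A3 lay below every control value, as was so for 0.682% of all genes tested. It was the 1 of 25 without overlap, beside 1.54% of all genes in either direction, and 0 of 25 had all treated values above, beside 0.858%. This gave a log2 fold change of -1.12 ± 0.41 (SE), with an unadjusted limma p of 0.0186 and an adjusted p of 0.999.

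UGT1A4, an enzyme of amine glucuronidation in humans, had 4.72, 4.35, 11.3, 35.3 and 15.2 in treated livers, against 36.2, 30.0, 24.0 and 30.0 in control livers. The 4 control values lay close together, and treated sheep 233 alone of the treated animals reached them. On the log2 scale the change was -1.39 ± 0.55 (SE), with an unadjusted limma p of 0.0262 and an adjusted p of 0.999. Without treated sheep 233 the treated mean of UGT1A4 was 8.89, against 14.2 with it. UGT1A6, which conjugates small phenols, had 84.9, 72.8, 46.4, 265.5 and 69.3 in treated livers, against 279, 125, 92.0 and 136 in control livers. Treated sheep 233 stood apart here too, and the other 4 treated values lay below every control value. Their mean was 68.4, against 108 with sheep 233. Control sheep 98 was likewise far above the other control livers, and without it the control mean of UGT1A6 was 118, against 158 with it. The change on the log2 scale was -0.71 ± 0.47 (SE), with an unadjusted limma p of 0.160. UGT2B7, which conjugates androgens and opioids in humans, had 837, 745, 531, 1329.5 and 591.5 in treated livers, against 1049.5, 1572, 765 and 962 in control livers. The groups overlapped for UGT2B7, with means of 807 ± 316 (SD, n = 5) in treated and 1087 ± 344 (SD, n = 4) in control livers and an unadjusted limma p of 0.158.

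**Figure D3:**
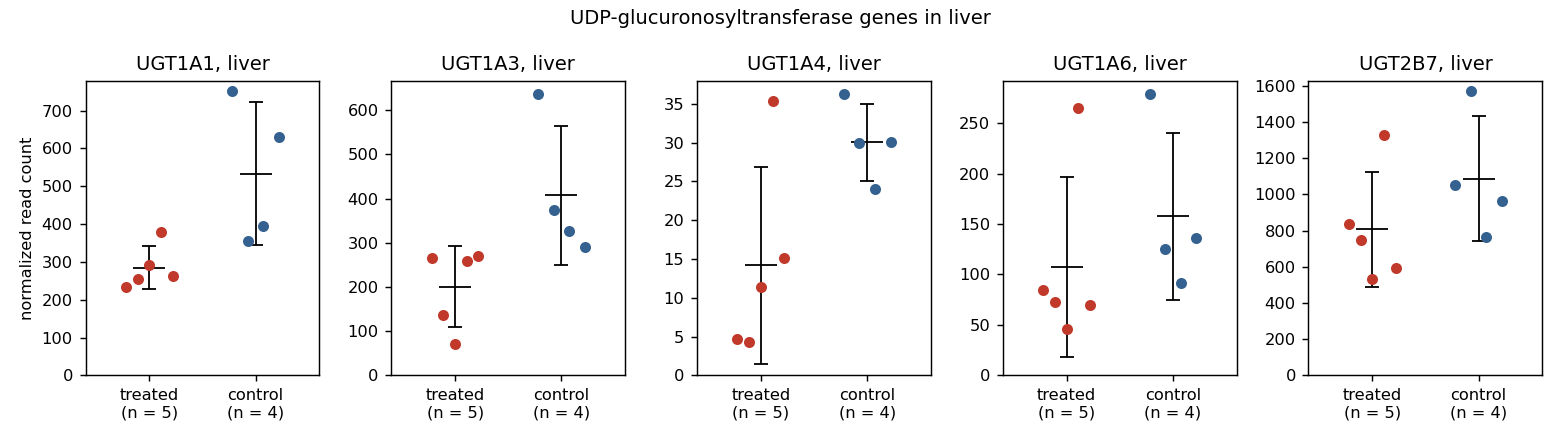
Each point is the normalized read count of one liver, with treated sheep at the left of each panel and control sheep at the right, and the bar and whiskers give the mean and SD. UGT1A3 has no overlap between groups, and UGT1A1, UGT1A4, UGT1A6 and UGT2B7 overlap through 1 or more livers.

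The 5 UGT genes summed to 1413 ± 506 (SD, n = 5) in treated and 2216 ± 501 (SD, n = 4) in control livers, and UGT2B7 made up 52.6% of that sum. In mammals each UGT1A gene has its own first exon and shares the later exons. The sheep gene table lists 5 UGT1A genes, and all 5 end within 1 base of each other. How the authors assigned reads in the shared exons is not given in the sources used here, so the split between UGT1A1, UGT1A3, UGT1A4 and UGT1A6 is uncertain. Control sheep 98 had the highest value of all 4 UGT1A genes. Without it the log2 fold change of UGT1A3 was -0.88 with an unadjusted p of 0.0661, that of UGT1A4 was -1.30 with 0.0634, and that of UGT1A1 was -0.67 with 0.0349. That of UGT1A6 was -0.39 without this sheep, with an unadjusted limma p of 0.433.

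Among the cytochromes P450, CYP1A1 and CYP2D6 had the largest log2 fold changes below 0 in liver. CYP1A1, which oxidises planar aromatic compounds and is induced through the aryl hydrocarbon receptor, had 2736, 2579.6, 458.5, 691.5 and 2486 in treated livers, against 2811, 1519, 4072.6 and 5265 in control livers. Treated sheep 185 and 233 were the low ones, and the other treated livers lay within the control range. Its log2 fold change was -1.13 ± 0.57 (SE), with an unadjusted limma p of 0.0693 and an adjusted p of 0.999. CYP2D6, which oxidises basic amines in humans, had 309, 196, 117.5, 313 and 359.7 in treated livers, against 438, 407, 163 and 859 in control livers. The log2 fold change was -0.73 ± 0.45 (SE), with an unadjusted limma p of 0.136.

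CYP2E1, which oxidises ethanol, acetone and other small molecules, had 32720.3, 29184, 12686, 37240.3 and 41773 in treated livers, against 25125, 42013, 24933 and 46897 in control livers. Treated sheep 185 alone of the treated livers lay below the control range. CYP3A24, of the family that hydroxylates steroids and a wide range of drugs, had 10629.6, 12651, 12360.3, 11898 and 13204 in treated livers, against 10670.4, 25437, 14292 and 7600.1 in control livers. The treated livers lay close together, and control sheep 131 was far above the rest. Its means were 12149 ± 972 (SD, n = 5) in treated and 14500 ± 7788 (SD, n = 4) in control livers. CYP2J, whose human relative makes epoxides of arachidonic acid, had 1654.5, 1686, 1643, 856 and 1404 in treated livers, against 1126, 1381, 1355 and 1329 in control livers. CYP2A6, the coumarin hydroxylase of humans, had 1169 ± 554 (SD, n = 5) in treated and 1263 ± 479 (SD, n = 4) in control livers, with treated sheep 185 lowest at 261. Unadjusted limma p-values of these 4 genes lay between 0.568 for CYP2E1 and 0.734 for CYP3A24.

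CYP2C proteins oxidise acidic drugs and fatty acids. CYP2C18 had 173, 182.6, 40.2, 132 and 425 in treated livers, against 175, 193, 147 and 149 in control livers. Treated sheep 185 lay below the control range and treated sheep 255 above it, and treated sheep 233 was slightly below it. CYP2C19 had 381, 177, 94.8, 234 and 1795 in treated livers, against 72.4, 241, 721.5 and 171 in control livers. The mean of CYP2C19 was 536 in treated and 302 in control livers, but the treated mean was 222 without sheep 255, and the control mean was 162 without sheep 179. Unadjusted limma p-values were 0.772 for CYP2C18 and 0.534 for CYP2C19. These genes are close relatives, so reads could be split between them too.

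FMO proteins oxidise nitrogen and sulfur atoms of amines and thioethers. FMO1 had 9299.5, 7303, 4817, 6739 and 9429.8 in treated livers, against 6139, 6820.1, 7385 and 6832 in control livers. Its control values were within 1.20 times of each other and its treated values within 1.96 times. FMO5, which in humans inserts oxygen next to ketones, had 9859.6, 3801, 441, 2767 and 14324.5 in treated livers, against 6916, 3915, 8037 and 3026 in control livers. Treated livers thus differed by 32.5 times among themselves and control livers by 2.66 times. Its mean was higher in treated livers, at 6239 against 5473 in control livers, while its log2 fold change was -0.47 ± 0.81 (SE). Without treated sheep 185 that change was 0.29. FMO4 had 253 ± 116 (SD, n = 5) in treated and 282 ± 130 (SD, n = 4) in control livers. FMO2, the main FMO of lung in many mammals, had 7.08, 4.35, 20.6, 9.63 and 9.75 in treated livers, against 8.41, 10.7, 9.95 and 15.6 in control livers. Its groups overlapped, and treated sheep 185 had the highest value.

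**Figure D4:**
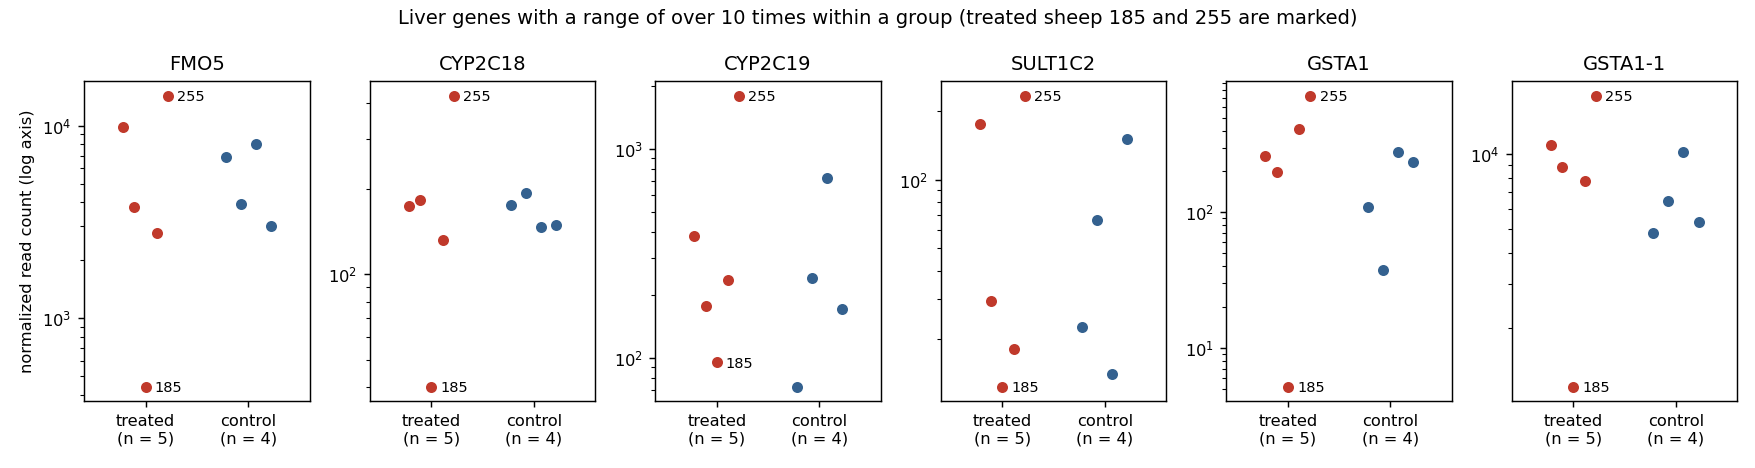
Points give the normalized read count of each liver on a log axis, treated sheep left and control sheep right, for the 6 genes whose values differed by over 10 times within a group and reached at least 50. Treated sheep 185 is the lowest treated liver and treated sheep 255 the highest in each of the 6 panels.

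GST proteins attach glutathione to reactive compounds, and the alpha class, here GSTA1 and GSTA1-1, is abundant in hepatocytes of many mammals. GSTA1 had 261, 199, 5.15, 414 and 726 in treated livers, against 109.9, 37.8, 279 and 234 in control livers. Treated sheep 185 had 141 times less than treated sheep 255. GSTA1-1 had 10888, 8820.0, 1168, 7747 and 17085 in treated livers, against 4820.1, 6444, 10161 and 5355 in control livers. For both genes the same pair of treated sheep, 185 and 255, held the lowest and the highest of the 9 values. Without treated sheep 185 the log2 fold change of GSTA1 was 1.45 with an unadjusted p of 0.0269, against 0.28 and 0.810 with it, and that of GSTA1-1 was 0.73 with 0.0440, against 0.091 and 0.887 with it. GSTA1 and GSTA1-1 are close relatives, and reads could be split between them. GSTM3, of the mu class, had 368, 309, 128, 260.1 and 324 in treated livers, against 93.1, 124, 306 and 137 in control livers. This gave a log2 fold change of 0.81 ± 0.39 (SE), with an unadjusted limma p of 0.0570 and an adjusted p of 0.999, and treated sheep 185 and control sheep 179 were the animals that kept the groups from parting.

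GSTZ1, which acts in tyrosine breakdown, had 4007, 4412, 2779.7, 3893 and 4338 in treated livers, against 3954, 5036, 5008 and 4783 in control livers. It averaged 3886 ± 656 (SD, n = 5) in treated and 4695 ± 507 (SD, n = 4) in control livers. Its within-group SD was 0.23 on the log2 scale, the lowest of the 25 genes. GSTO2, which reduces dehydroascorbate, had 13.0, 6.52, 16.5, 12.8 and 2.17 in treated livers, against 11.6, 14.5, 18.2 and 24.5 in control livers, with an unadjusted limma p of 0.135. GSTP1, of the pi class found in bile duct cells in many mammals, had 73.3 ± 20.9 (SD, n = 5) in treated and 72.4 ± 11.9 (SD, n = 4) in control livers. Sulfotransferases attach sulfate to steroids, phenols and other hydroxyl groups. SULT1C2 had 176, 29.3, 12.4, 18.2 and 234 in treated livers, against 22.6, 66.8, 14.1 and 151 in control livers. SULT6B1 had 3.54, 23.9, 23.7, 21.4 and 7.58 in treated livers, against 31.0, 1.94, 8.29 and 3.34 in control livers. The mean of SULT1C2 was 93.9 in treated and 63.7 in control livers, but 58.9 in treated livers without sheep 255 and 34.5 in control livers without sheep 201. The mean of SULT6B1 was 16.03 in treated and 11.2 in control livers, and 4.52 in control livers without sheep 98.

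Differences between sheep of one group were wide for these genes. The within-group SD of log2(normalized count + 1) had a median of 0.81 over the 25 genes in liver, beside 0.52 over all 13640 genes, and 18 of the 25 lay above that median of all genes. GSTA1 had the largest SD, at 2.22, followed by SULT1C2 at 1.74, FMO5 at 1.55 and CYP2C19 at 1.501. In muscle the median SD was 0.53 over 12 genes, beside 0.31 over all 12966 genes tested. These comparisons with all genes were not matched for read level. In liver, treated sheep 185 held the lowest value of 14 of the 25 genes. Treated sheep 255 held the highest liver value of 7 of the 25 genes, while it held the highest value of 17.1% of all liver genes. These 7 were FMO1, FMO5, SULT1C2, CYP2C18, CYP2C19, GSTA1 and GSTA1-1. Control sheep 179 held neither the lowest nor the highest value of any of the 25, although it held the highest value of 19.2% of all liver genes and the lowest of 16.1%.

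In muscle FMO5 was lower and GSTP1 higher in every treated sheep than in any control sheep, and CYP2D6 was higher on average, but no gene passed the test over all genes. By limma 0 of 12 passed an adjusted p under 0.05, as did 0 by edgeR and 0 by DESeq2, beside 0.00771%, 0.00771% and 1.94% of all 12966 genes. At an unadjusted limma p under 0.05, 3 of 12 differed, beside 14.4% of all genes, with 1 lower beside 7% and 2 higher beside 7.37%. By edgeR and DESeq2 4 of 12 had an unadjusted p under 0.05, with GSTA1 as the fourth, beside 14.2% and 14.9%. The median log2 fold change was -0.036 over the 12 genes and -0.013 over all genes, and 7 of 12 were below 0, beside 51.6%. Ranges of 2 of 12 did not overlap, beside 3.29% of all genes.

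Muscle values are given for treated sheep 48, 63, 185, 233 and 255 and for control sheep 98, 131, 132, 179 and 201 in that order. FMO5 had 28.4, 22.7, 21.1, 30.7 and 29.1 in treated muscle, against 43.7, 41.1, 36.3, 36.0 and 39.6 in control muscle. Separation in this direction held for 1.53% of all muscle genes. On the log2 scale the change was -0.57 ± 0.20 (SE), with an unadjusted limma p of 0.0131 and an adjusted p of 0.240. GSTP1 had 64.9, 88.2, 61.8, 68.1 and 57.3 in treated muscle, against 52.6, 39.0, 55.0, 45.3 and 50.6 in control muscle. No values overlapped, as for 1.76% of all muscle genes in this direction, and the log2 fold change was 0.48 ± 0.18 (SE), with an unadjusted limma p of 0.0194 and an adjusted p of 0.266. CYP2D6 had 25.4, 44.5, 52.3, 63.9 and 23.3 in treated muscle, against 23.8, 24.9, 17.6, 31.3 and 10.9 in control muscle. Treated sheep 63, 185 and 233 lay above the control range, and sheep 48 and 255 within it. Its log2 fold change was 0.89 ± 0.34 (SE), with an unadjusted limma p of 0.0218 and an adjusted p of 0.273.

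**Figure D5:**
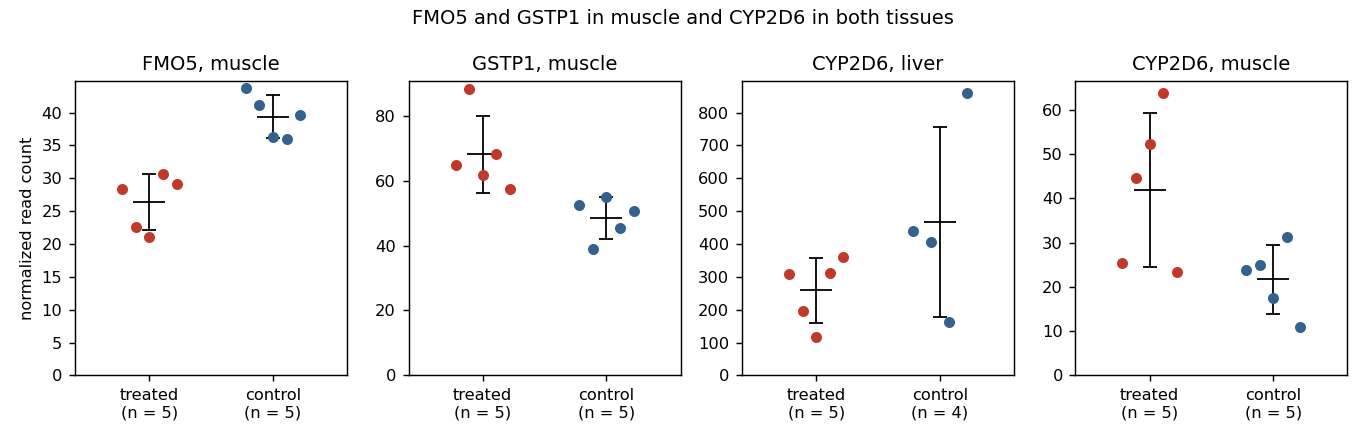
Points are normalized read counts of single libraries, with treated sheep left and control sheep right in each panel, and the bar and whiskers give the mean and SD. FMO5 and GSTP1 do not overlap between groups in muscle, and CYP2D6 is lower on average in treated liver and higher on average in treated muscle.

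Markers of other cells were set beside these muscle values, at the same threshold and beside the same 7.37% higher and 7% lower of all muscle genes. The 7 adipocyte markers, with none at 0 in every library, summed to between 1909 and 3141 in treated and between 2467 and 4096 in control muscle, with 3 of 6 tested lower at an unadjusted limma p under 0.05. The 8 skeletal muscle markers summed to between 939723 and 1829603 in treated and between 1806507 and 2108578 in control muscle, with 0 of 8 tested at that threshold. Of the treated muscles only sheep 63, at 1829603, lay within the control range. The others lay below it, with sheep 48 lowest at 939723, and the median log2 fold change of the 8 was -0.42. The 10 T and NK cell markers summed to between 209 and 369 in treated and between 174 and 252 in control muscle, with 1 of 8 tested higher. This was LCK, a T cell kinase, at 24.3 to 42.6 in treated and 12.9 to 20.51 in control muscle. Its groups did not overlap, as for 1.76% of all muscle genes in this direction. The unadjusted limma p was 0.00674 and the adjusted p 0.196. TEK, 1 of 6 endothelial markers tested, was lower. None of 8 stellate cell, 5 macrophage and 2 B and plasma cell markers tested passed the threshold, and no erythroid marker was high enough to test. The part of these cells in the FMO5, GSTP1 and CYP2D6 values was not tested.

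The remaining muscle genes overlapped between groups. GSTA1 had 251, 147, 208, 185 and 181.6 in treated muscle, against 276, 129, 249.7, 354 and 756 in control muscle, with control sheep 201 far above the rest. GSTA1-1 had 3563.6, 3347, 2687.4, 1868 and 2396 in treated muscle, against 2518, 1583, 2469.9, 2410.1 and 4588 in control muscle. GSTM3 had 1466, 2251, 1269.9, 1225 and 1088 in treated muscle, against 846, 875, 1282, 1783 and 1439.6 in control muscle. The groups overlapped for both genes. GSTZ1 had 294, 373, 285, 289 and 273 in treated muscle, against 316, 343, 290.5, 279.8 and 288.5 in control muscle, and its means were 303 in both groups. CYP2J had 19.3, 6.47, 15.3, 11.9 and 30.1 in treated muscle, against 49.6, 14.1, 19.8, 26.7 and 19.1 in control muscle. FMO2 had 15.2, 17.0, 18.2, 23.9 and 18.4 in treated muscle, against 9.92, 30.3, 53.9, 22.1 and 41.0 in control muscle. Treated values of FMO2 lay within the wider control range. FMO1 had 82.2, 10.52, 42.2, 24.7 and 16.5 in treated muscle, against 15.9, 37.9, 41.8, 39.5 and 28.7 in control muscle, with treated sheep 48 above all others. Without that sheep the treated mean of FMO1 was 23.5, against 35.2 with it. FMO4 had 66.0, 60.7, 71.2, 85.2 and 52.4 in treated muscle, against 66.5, 80.1, 60.5, 69.7 and 71.1 in control muscle, with overlap. CYP1A1 had 35.5, 5.67, 2.18, 11.9 and 5.83 in treated muscle, against 2.98, 9.74, 1.10, 20.9 and 8.20 in control muscle. Its treated mean of 12.2 became 6.40 without sheep 48, and its control mean of 8.58 became 5.51 without sheep 179.

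The difference between tissues was tested for the 12 genes measured in both, as the treatment effect in liver minus that in muscle. By limma 0 of 12 passed an adjusted p under 0.05, beside 0.00855% of 11697 genes, and 1 of 12 had an unadjusted p under 0.05, beside 4.90% of all genes. The 1 was lower, beside 2.56% of all genes, and 0 were higher, beside 2.34%, while 5 of 12 differences were below 0, beside 48.6%. That gene was CYP2D6, with a log2 fold change of -0.73 in liver and 0.89 in muscle, a difference of -1.62 ± 0.59 (SE), an unadjusted p of 0.0118 and an adjusted p of 0.897. The next were CYP1A1, with a difference of -1.52 ± 0.96 (SE), CYP2J, with 0.75 ± 0.48 (SE), GSTP1, with -0.49 ± 0.31 (SE), and GSTZ1, with -0.28 ± 0.22 (SE), at unadjusted p-values from 0.127 to 0.222. FMO5 had a log2 fold change of -0.47 in liver and -0.57 in muscle, a difference of 0.10 ± 0.84 (SE).

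Receptors that control these enzymes were also measured. Of 17 listed regulators, 16 were tested in liver, with a median log2 fold change of -0.0455. At an unadjusted limma p under 0.05, 1 was higher (AHR) and 1 lower (NR1I2), beside 1.82% and 2.17% of all genes. NR1I2, the pregnane X receptor, which induces CYP3A, CYP2C and UGT1A genes, had 2052, 2392, 1381, 371 and 2376 in treated livers, against 3474, 3665, 2532 and 2895 in control livers. All 5 treated values lay below all 4 control values, as was so for 0.682% of all liver genes tested. Its log2 fold change was -1.12 ± 0.48 (SE), with an unadjusted limma p of 0.0376 and an adjusted p of 0.999. The unadjusted p was 0.0521 by edgeR and 0.0455 by DESeq2. Without treated sheep 233 the treated mean of NR1I2 was 2050, against 1714 with it. AHR, the aryl hydrocarbon receptor, which induces CYP1A1 and UGT1A6, had 1283, 1004, 795, 1614 and 1425 in treated livers, against 623, 828, 1011 and 629.9 in control livers. The log2 fold change was 0.65 ± 0.26 (SE), with an unadjusted limma p of 0.0301 and an adjusted p of 0.999. NR1I3, the constitutive androstane receptor, had 237, 185, 54.6, 119 and 594 in treated livers, against 142, 402, 199.9 and 318 in control livers, and sheep 185 and 255 again held the lowest and the highest value. Without sheep 255 the treated mean of NR1I3 was 149, against 238 with it. NFE2L2, which induces GST genes under oxidative stress, had 1297 ± 337 (SD, n = 5) in treated and 1348 ± 465 (SD, n = 4) in control livers. NR1I2 had a mean of 0 in treated and 0.493 in control muscle, and NR1I3 was at 0 in all 10 muscle libraries.

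POR, the electron donor of microsomal cytochromes P450, was not analysed here. Other genes of drug handling were read from lists of regulators, electron and heme supply, conjugation cosubstrates, other phase I and phase II enzymes and drug transporters. Of 103 such genes tested in liver, 0 passed an adjusted p under 0.05 by limma, 0 by edgeR and 0 by DESeq2, and at an unadjusted limma p under 0.05 there were 3 higher and 5 lower, beside 1.82% and 2.17% of all genes. Of 20 drug transporters tested in liver, 3 were lower and 0 higher at that threshold, namely SLCO2A1, a prostaglandin carrier with means of 107 in treated and 336 in control livers, SLC22A5, the carnitine carrier with 292 in treated and 635 in control livers, and SLC22A7, an organic anion carrier with 925 in treated and 1638 in control livers. AHCY, which clears S-adenosylhomocysteine after methylation, had a mean of 4492 in treated and 9192 in control livers, with an unadjusted limma p of 0.00191. Higher at that threshold were PON3, a lactonase, with 5097 in treated and 3018 in control livers, AS3MT, the arsenic methyltransferase, with 1768 in treated and 999 in control livers, and AHR. In muscle 79 such genes were tested, with 0 at an adjusted p under 0.05 by limma, 0 by edgeR and 1 by DESeq2, beside 1.94% of all genes by DESeq2. At an unadjusted limma p under 0.05, 2 were higher and 9 lower, beside 7.37% and 7% of all genes. Lower were MAFF, FECH, UGP2, PAPSS2, AHCY and CBR4, and also HMOX1, the heme oxygenase and the 1 called by DESeq2 (adjusted p = 0.0471, against 0.196 by limma), with means of 1476 in treated and 3103 in control muscle, ALDH2, the mitochondrial aldehyde dehydrogenase, with 6630 in treated and 9440 in control muscle, and EPHX1, the microsomal epoxide hydrolase, with 506 in treated and 742 in control muscle. Higher were ALDH3B1, with 55.7 in treated and 34.1 in control muscle, and GSS, glutathione synthetase, with 73.1 in treated and 51.1 in control muscle.

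Markers of other cells and of liver zones were set beside the liver values, counted at an unadjusted limma p under 0.05, where 1.82% of all liver genes were higher and 2.17% lower. The 10 hepatocyte markers summed to between 907690 and 2193967 in treated and between 926692 and 1834666 in control livers, with 0 of 10 at an unadjusted limma p under 0.05 and none at 0. The 8 bile duct cell markers, none at 0, summed to between 3965 and 10110.2 in treated and between 1728 and 3609 in control livers. SPP1 had a mean of 5275 in treated and 1079 in control livers, and was the 1 of 8 tested at that threshold. The other 7 summed to between 835 and 2224 in treated and between 1307 and 2033 in control livers, which overlapped, and the median log2 fold change of the 8 was -0.11. The 8 skeletal muscle markers measured summed to between 17.1 and 34.0 in treated and between 45.3 and 137 in control livers, without overlap. Of 2 tested in liver 1 was lower, NEB, the muscle protein nebulin, with a mean of 16.1 in treated and 54.9 in control livers, and with an unadjusted limma p of 0.000780, a limma adjusted p of 0.835 and a DESeq2 adjusted p of 0.0233. The 10 markers of T and NK cells summed to between 388 and 757 in treated and between 287 and 457 in control livers, with 2 of 9 tested higher. Adipocyte markers numbered 7, with PLIN4 at 0 in every liver, and summed to between 102 and 302 in treated and between 219.8 and 519 in control livers, with 3 of 4 tested lower. Of 10 markers of hepatocytes around the central vein 1 was higher, GLUL, and of 10 markers of those around the portal vein 0 had an unadjusted limma p under 0.05. None of the macrophage (7 tested), B and plasma cell (3 tested) and erythroid (1 tested) markers passed that threshold in liver, while LYVE1 of 7 endothelial and RGS5 of 9 stellate cell markers were lower in treated livers. The part of these cells in the UGT1A values was not tested.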

How the data were processed

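Total RNA of liver and muscle was made into libraries with the TruSeq RNA kit, per the labels' protocols. The tools named are Trimmomatic for trimming, STAR for alignment and featureCounts 1.6.1 for counting, according to the submitters' processing notes. No source used here gives the build, annotation or strand setting. The deposited signal is a normalized read count, in which 100% of values were whole multiples of 1 read within a tolerance of 0.01, and reads were recovered from it. Size factors recomputed within each tissue differed by a relative 1.9e-10 at most from the authors' deposited scaling.

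Genes averaging 10 or more in a tissue were tested on log2(value + 1) with limma 3.58.1 (mean-variance trend, R 4.3.3), with Benjamini-Hochberg adjustment over all genes tested at 0.05. Each tissue was fitted alone, and the difference between tissues in 1 fit of 19 libraries, over genes past the mean in both. edgeR 4.0.16 and DESeq2 1.42.0 on recovered reads, other pseudocounts, filters, scalings and weights, and each library left out were alternatives. Replicates were separate animals. The sheep number pairs the tissues because both came from 1 animal, and deviations from the group means correlated at a median of 0.177 within a sheep and -0.0194 between sheep. Family sums are values with no test.

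Members and lists were chosen with earlier results of these data known. Named with values in every library were the 8 highest means and the 5 smallest p per direction in each tissue, ranges of over 10 times within a group that reached 50, and the 5 smallest p of the difference. Genes of the other lists were named at an unadjusted p under 0.05, some by name or mean alone. The gene table of sheep assembly ARS-UI_Ramb_v3.0 listed 22 of the 25 symbols and was used for names and neighbours. Intervals for counts of 0 use 3 reads and cover counting error only.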

Additional observations from a re-analysis of the deposited data

Results flagged for a closer look

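Of 74 groups of 4 or 5 libraries examined, 4 held a value far from the rest of its group by Dixon's criterion, which chance gives in about 1 of 20 groups. In treated livers, UGT1A6 of sheep 233 had 265 normalized reads, and CYP2C19 of sheep 255 had 1795. GSTP1 of control sheep 201 had 90.1 in liver. In treated muscle, GSTZ1 of sheep 63 had 373.

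CYP2D6 was below the control mean in 5 of 5 treated livers and above it in 5 of 5 treated muscles, so that the direction of its mean change differed between tissues. The share of all genes with such a pattern was not counted. The liver control mean was 467, but 336 without control sheep 201, at 859. Treated sheep 255, at 360, lay above that lower mean. The ranges of treated and control libraries overlapped in both tissues. The difference of the effects was -1.62 on the log2 scale, with an adjusted limma p of 0.897, so it did not pass the test.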

How the results depend on the processing

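No alternative gave any of these genes an adjusted p under 0.05. In liver, 18 alternatives were run, and UGT1A1 kept an unadjusted p under 0.05 in 18, UGT1A3 in 17 and UGT1A4 in 10 of 17. In muscle, FMO5 did so in 17 of 18, GSTP1 in 17 of 19 and CYP2D6 in 15 of 18. FMO5 lost it with all 19 libraries in 1 fit, at an unadjusted limma p of 0.336. GSTP1 lost it without control sheep 131 or treated sheep 63, and CYP2D6 without control sheep 201 or treated sheep 185 or 233. The difference of CYP2D6 kept it in 15 of 16, and not without control sheep 201. With the sheep as a replicate block, the difference of CYP2D6 was -1.61, and 1 gene of all passed, as without the block; the block changed no call.

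Genes called among all in liver were 0 with a mean of at least 50, 2 with array weights, 32 by DESeq2 and 9 with all libraries in 1 fit, and in muscle 0 with a pseudocount of 0.25, 0 with a mean of at least 50 and 252 by DESeq2. For the difference they were 0 with a pseudocount of 4, 0 with no filter and 3 with array weights. Leaving out 1 animal gave 0 to 4 in muscle and 0 to 1 for the difference. Of the 25 genes, 1 was higher at an unadjusted p under 0.05 in liver when array weights were used and 1 when the 19 libraries shared a fit. Without 1 library, 0 to 3 were higher and 1 to 5 lower. In muscle, with a mean of at least 50, 1 was higher and 0 lower, while 2 were lower by edgeR, 2 by DESeq2 and 0 with all libraries in 1 fit. Without 1 library 1 to 2 were higher and 1 to 2 lower. For the difference, 0 were lower with a mean of at least 50 and 2 higher with array weights, and without 1 sheep 0 to 1 were higher, 0 to 1 lower, and the median was -0.31 to 0.58. Apart from edgeR and DESeq2, the shares of all genes at an unadjusted p under 0.05 in these alternatives are not given here.

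Signs turned in 17 pairs of a gene and a tissue, each with an unadjusted limma p of 0.534 or more in the results as reported. In liver these were SULT1C2 (-0.067) and GSTP1 (0.078) with array weights, FMO5 (0.16) and CYP2C18 (0.16) by edgeR, and FMO5 (0.19), CYP2C18 (0.19) and GSTP1 (0.017) by DESeq2. In muscle GSTZ1 was 0.011 with TMM, 0.025 with array weights, 0.0083 by edgeR and 0.0057 by DESeq2, and FMO1 0.11 by edgeR and by DESeq2. Without 1 library, liver log2 fold changes ran from -0.96 to 0.29 for FMO5, -0.36 to 0.799 for SULT1C2, -0.34 to 0.00075 for FMO2, -0.43 to 0.096 for FMO4, -0.55 to 0.22 for CYP2A6, -0.24 to 0.73 for GSTA1-1, -0.299 to 1.45 for GSTA1, -0.14 to 0.097 for GSTP1, -0.53 to 0.31 for CYP2C18, -0.13 to 1.08 for CYP2C19, -0.36 to 0.067 for CYP2E1 and -0.37 to 0.21 for CYP3A24. In muscle they ran from -0.086 to 0.037 for GSTZ1, -0.56 to 0.15 for FMO1, -0.15 to 0.019 for FMO4, -0.056 to 0.77 for CYP1A1 and -0.093 to 0.29 for GSTA1-1. The cause was not tested. Family sums moved by less than their spread under each alternative run. Precision is limited by 4 or 5 sheep a group and, for FMO5, GSTA1 and CYP2C19 in liver, by standard errors of 0.81, 1.15 and 0.79 on the log2 scale.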
